A study of Mus musculus with 12 samples.

Results

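The kinesin family was taken as the genes with a mouse symbol of Kif and a number, with or without a letter from a to c, of Kifc and a number, or of Klc1, Klc2, Klc3 or Klc4. Of 47 such symbols in the RefSeq gene table (assembly GRCm38.p6, used here for names), 34 genes had a matched target on the array, with 42 targets and 126 probes, among the 25128 genes and unmatched targets that were tested. The genes were grouped by roles assigned from their names and textbook function. Of the 34, 10 were listed under mitosis and cytokinesis (Kif2c, Kif4, Kif11, Kif15, Kif18a, Kif18b, Kif20a, Kif22, Kif23, Kif24), a listing that is uncertain for Kif24. Another 7 were listed under transport in neurons (Kif1a, Kif3c, Kif5a, Kif5c, Kif17, Kif21a, Kif21b) and 8 under transport in many cells (Kif1b, Kif1c, Kif3a, Kif3b, Kif5b, Kif13a, Kifc2, Kifc3). The listing of Kifc2 under transport in many cells is also uncertain. A further 4 are the kinesin light chains, 4 are listed with cilia, flagella and Hedgehog signaling (Kif6, Kif9, Kif12, Kif27), and 1 is the microtubule depolymerase Kif2a. Kif2b, Kif7, Kif13b, Kif14, Kif16b, Kif19a, Kif20b, Kif26a, Kif26b, Kif28, Kifc1, Kifc5b and the pseudogene Kifc5c-ps had no matched target and are not analysed here.

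RNA came from 4 plates labelled AtT20, a mouse pituitary corticotroph tumor line, 4 plates of BV2, an immortalized mouse microglial line, and 4 plates of N18, a mouse neuroblastoma line. All 12 plates were untreated, were grown in the same medium with serum to confluence, and were extracted separately and hybridized in a single color (Cy3). The study's methods add that BV2 was kept under conditions favoring a resting rather than an activated state. Each line is 1 established line, so a difference between lines is a difference between these cultures and not between cell types in tissue. Each array measured a whole culture, so that more cells with a transcript and more transcript per cell cannot be told apart.

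The labels were compared with marker genes. On the BV2 plates 7 of 8 microglia markers were above the detection threshold explained below, with a mean level of 3.16 to 3.82, and on the N18 plates 10 of 12 neuroblastoma markers were, with a mean level of 2.58 to 2.9. Aif1 in BV2, and Nefl and Th in N18, were the markers below it. On the plates labelled AtT20 none of the corticotroph markers passed (0 of 6, mean level 0.0306 to 0.172), and Pomc, the precursor of corticotropin, had a level of 0.25 ± 0.25 (SD, n = 4). There 5 of 12 neuroblastoma markers passed instead, namely Nefl (4.42), Nefm (2.83), Hand2 (1.99), Tubb3 (1.98) and Gata3 (0.65), with a mean level of 0.757 to 1.44 over the list. Of the corticotroph markers 2 of 6 passed in N18 and 1 of 6 in BV2, and 3 of 12 neuroblastoma markers passed in BV2. The interquartile range of an array's log2 values was also narrower there, 0.378 to 0.782 against 1.28 to 1.73 for BV2 and 1.91 to 2.21 for N18. N18 against BV2 is therefore described first, and differences from the plates labelled AtT20 are given under 3 scalings.

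Kinesins are motor proteins that burn ATP to move along microtubules. The mitotic kinesins build the spindle, move chromosomes and complete cytokinesis, and most of them are transcribed as cells approach division. Transport kinesins carry vesicles, mitochondria and protein complexes, over long distances in the axons and dendrites of neurons. Kinesin-1 joins heavy chains, which hold the motor and are encoded by Kif5a, Kif5b and Kif5c, to light chains, which bind cargo and are encoded by Klc1 to Klc4.

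The promoters of the mitotic and the transport kinesins were read from RefSeq (GRCm38.p6), as windows of 300 bases from 250 before to 50 after the annotated start. A window was in the table for 27 of the 34 genes. The letters TTTGAA, one form of the cell cycle genes homology region (CHR) known from promoters of genes of cell division, and CCAAT, the letters read by the factor NF-Y, were searched on both strands; these motifs do not overlap each other. TTTGAA was present in 7 of 9 windows of mitotic kinesins (77.8%), 2 of 22 windows of the other members (9.1%) and 17.9% of all 32851 windows in the table. CCAAT was present in 66.7% of the mitotic windows, 36.4% of the windows of other members and 37.4% of all windows. It was not particular to the mitotic group, since transport in many cells (4 of 6 windows) and the light chains (2 of 3) had the same 66.7%. The members listed with cilia had it in 2 of 5 windows, neuronal transport in 0 of 6 and Kif2a in 0 of 2. Both occurred in 5 of 9 mitotic windows (55.6%) and 7.0% of all windows. These 5 are printed with the window of Kif5c, a transport kinesin with neither, over 110 bases before to 25 after the start, 5′ to 3′ on the gene's strand, with matches to either motif in capitals (TTCAAA and ATTGG are the same motifs on the other strand):
Kif18b, chr11:102925100-102925234, minus strand: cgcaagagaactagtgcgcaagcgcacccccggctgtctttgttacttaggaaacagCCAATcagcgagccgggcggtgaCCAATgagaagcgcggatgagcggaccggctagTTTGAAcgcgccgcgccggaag
Kif22, chr7:127042396-127042530, minus strand: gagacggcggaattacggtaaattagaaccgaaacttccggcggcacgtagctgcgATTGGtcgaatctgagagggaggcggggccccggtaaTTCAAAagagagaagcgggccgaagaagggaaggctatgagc
Kif4, chrX:100625955-100626089, plus strand: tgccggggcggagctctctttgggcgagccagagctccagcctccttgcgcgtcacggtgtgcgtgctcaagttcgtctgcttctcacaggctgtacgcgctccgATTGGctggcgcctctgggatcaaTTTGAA
Kif23, chr9:61946775-61946909, minus strand: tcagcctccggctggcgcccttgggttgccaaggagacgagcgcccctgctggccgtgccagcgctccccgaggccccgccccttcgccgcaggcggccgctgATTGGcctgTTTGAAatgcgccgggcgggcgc
Kif11, chr19:37376272-37376406, plus strand: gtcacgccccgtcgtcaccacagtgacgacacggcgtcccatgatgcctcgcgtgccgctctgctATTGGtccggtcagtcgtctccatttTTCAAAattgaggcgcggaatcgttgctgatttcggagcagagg
Kif5c, chr2:49619176-49619310, plus strand: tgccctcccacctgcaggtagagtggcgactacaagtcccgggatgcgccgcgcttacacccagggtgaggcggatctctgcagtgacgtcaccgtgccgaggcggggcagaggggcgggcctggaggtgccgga

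In the 5 printed mitotic stretches TTTGAA began between 19 bases before the start (Kif11) and base 20 after it (Kif4), and a CCAAT match lay upstream of it in each. Kif22 held a second match at position -215 from its start, outside the printed stretch. No TTTGAA was found in the windows of Kif18a and Kif24. A match is a description of letters and not a site in use.

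**Figure D1:**
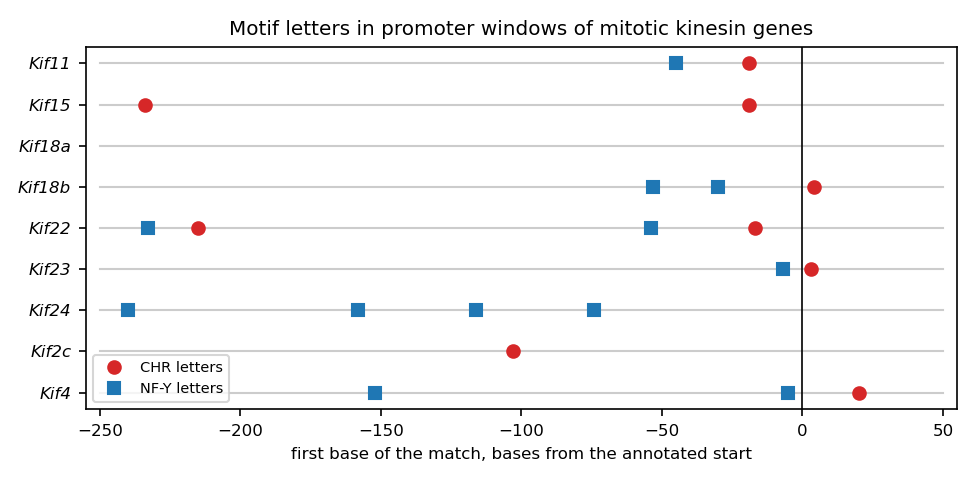
Positions of TTTGAA (CHR letters, red circles) and CCAAT (NF-Y letters, blue squares), on either strand, in the 9 promoter windows of mitotic kinesin genes, in bases from the annotated start (vertical line). Of the 9 windows, 7 held TTTGAA, and in Kif11, Kif18b, Kif22, Kif23, Kif4 and Kif15 a match began within 20 bases of the start.

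Detection was read from the level, which is the log2 value of a gene on a plate minus the mean of 11 seminal protein genes on that plate, following the rule in the study's methods. Detection required that the mean of the 4 levels in a line lie above 2 SD of these seminal genes (likewise a mean of 4 plates), a threshold of 0.44 for the plates labelled AtT20, 0.848 for BV2 and 0.943 for N18. By this rule 17 of 34 members were detected on the plates labelled AtT20 (50%, against 29.8% of all features), 19 in BV2 (55.9%, against 39.3%) and 23 in N18 (67.6%, against 47.1%). With Svs3a alone standing for the Svs3 of the methods, which leaves 10 seminal proteins, the counts were 20, 28 and 28, so that members near the threshold depend on the choice of controls.

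The mitotic kinesins were detected mostly in BV2 and N18. Of the 10, 8 passed in BV2 (against 39.3% of all features) and 9 in N18 (against 47.1%). On the plates labelled AtT20 3 passed (Kif2c, Kif20a, Kif23), a share near the 29.8% of all features there. Across the whole family 8 genes passed in all 3 lines (Kif2a, Kif2c, Kif3b, Kif9, Kif20a, Kif23, Klc1, Klc2) and 3 passed in none (Kif6, Kif24, Kif27). Kif3c, Kif4, Kif5b, Kif11, Kif15, Kif18b, Kif21b and Kif22 passed in BV2 and N18. Kif1b, Kif3a, Kif5c and Kif18a passed in N18 alone, Kif13a and Kif17 in BV2 alone, and Kif1c, Kif12, Kif21a, Kifc3 and Klc3 on the plates labelled AtT20 alone. Kif1a, Kif5a and Klc4 passed on the plates labelled AtT20 besides N18, and Kifc2 on those plates besides BV2. Kif13a in BV2, with a level of 0.851, was the closest to its threshold, and the alternative with 10 seminal proteins changed 17 calls, all to detected. Under it Kif1a, Kif1b, Kif1c, Kif3a, Kif5a, Kif6, Kif12, Kif24 and Klc4 passed in BV2 too, Kif12, Kif13a, Kif17, Kif24 and Kifc3 in N18, and Kif4, Kif5c and Kif18b on the plates labelled AtT20. With olfactory receptor genes as controls no member was gained. Kif1a, Kif2c, Kif3b and Kifc3 then failed on the plates labelled AtT20. So did Kif13a, Kif22 and Kifc2 in BV2, and Kif9, Kif18a and Klc4 in N18. Over the 6 alternatives apart from the 10 seminal proteins, Kif3b on the plates labelled AtT20 passed in 0. Kif9 in N18 and Kifc2 in BV2 passed in 1.

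**Figure D2:**
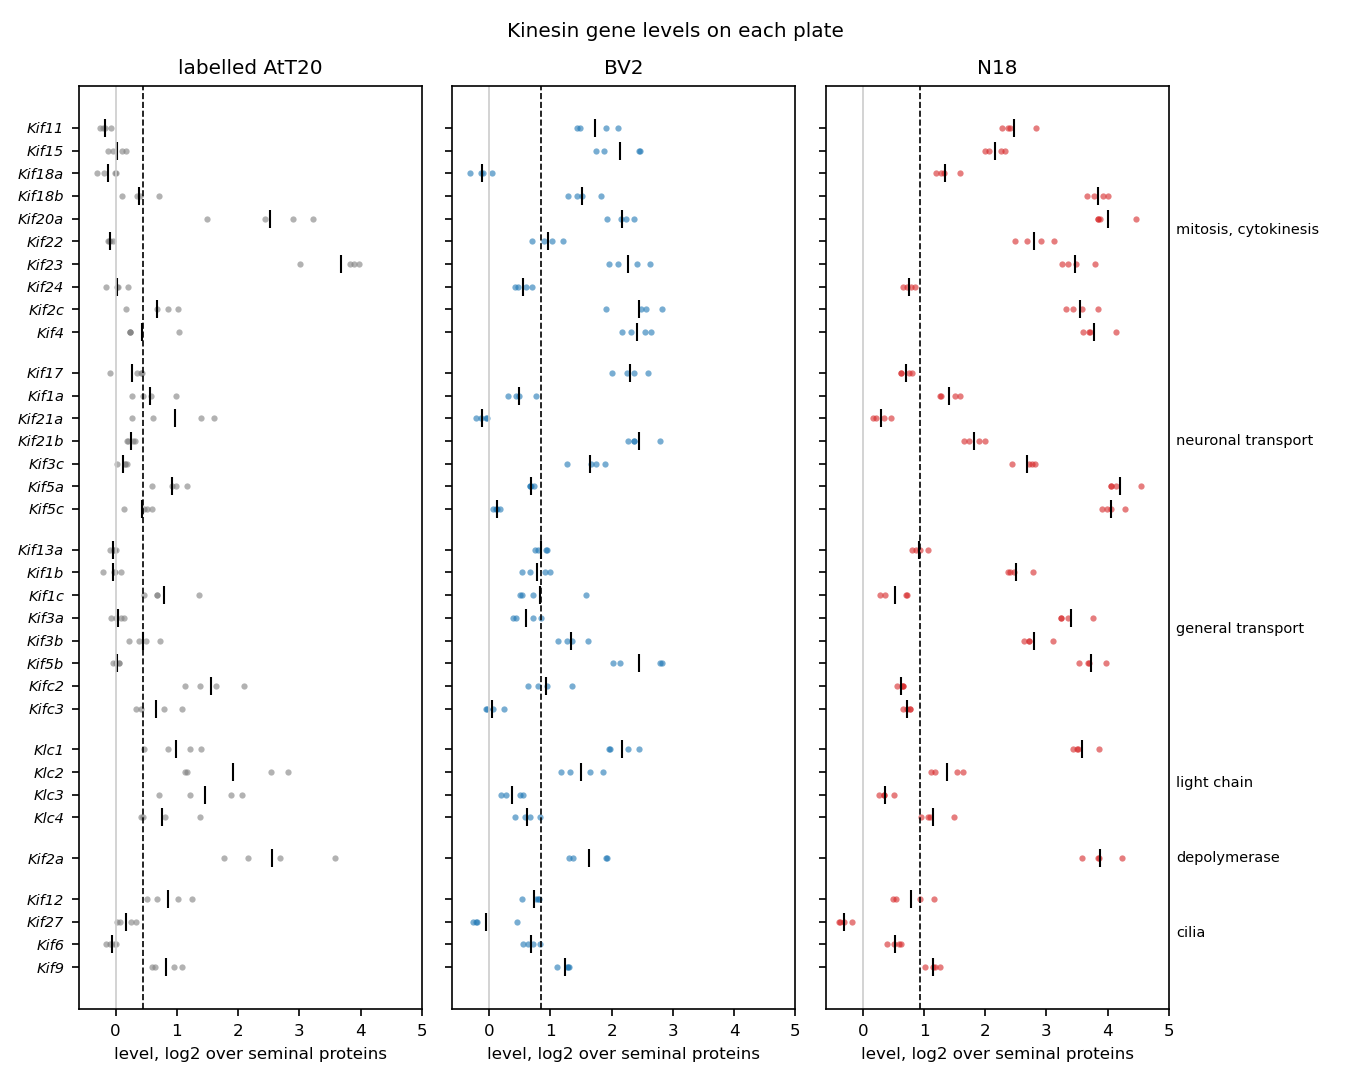
Level of each of the 34 kinesin genes (log2 over the seminal proteins, horizontal axis) on each plate (points), with the mean of the 4 plates of a line (vertical bar) and the detection threshold of the line (dashed line). Kif5a and Kif5c stood above 3.9 on every N18 plate, while Kif5c was below 0.6 on every other plate and Kif5a below 1.2.

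The kinesin-1 chains differed in which lines carried them. Kif5a had a level of 0.92 ± 0.24 (SD, n = 4 here and below) for the plates labelled AtT20, 0.68 ± 0.034 for BV2 and 4.19 ± 0.23 for N18. Kif5c, its other neuronal heavy chain, had 0.43 ± 0.20, 0.12 ± 0.045 and 4.06 ± 0.16 in the same order. Both were thus highest in N18. Kif5b, the heavy chain found in most cells, had 0.016 ± 0.053, 2.44 ± 0.42 and 3.72 ± 0.19, so that no heavy chain but Kif5a passed on the plates labelled AtT20. The targets of Kif5a were unequal on those plates, with means of 13.09 and 10 after quantile normalization, against 11.2 and 10.27 in BV2.

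Klc1 was the light chain that followed this order, with a level of 0.98 ± 0.41 for the plates labelled AtT20, 2.16 ± 0.24 for BV2 and 3.58 ± 0.19 for N18. Klc2 had levels of 1.92 ± 0.89, 1.5 ± 0.32 and 1.37 ± 0.26, which overlapped between all the lines. Klc3 stood at 1.47 ± 0.62 for the plates labelled AtT20 and at 0.38 ± 0.18 in BV2 and 0.36 ± 0.11 in N18, both below threshold. Klc4 was near the threshold everywhere, at 0.76 ± 0.45, 0.63 ± 0.17 and 1.15 ± 0.23.

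N18 was compared with BV2 after quantile normalization of the 12 arrays, in limma, with p values adjusted over all 25128 features. More kinesins were higher in N18 than lower: 17 of 34 were higher (50%, against 19.0% of all features) and 9 were lower (26.5%, against 21.9%), and 8 did not pass. Among the features detected in at least 1 of both lines the background was 31.6% higher and 28.0% lower. The median difference of the members was 0.36 on the log2 scale and that of all features was -0.060. Relative to the seminal proteins the split was 20 higher and 2 lower, against 39.2% and 12.8% of all features. The medians on that scale were 0.83 for the members and 0.18 for all features. Without normalization the split was also 20 and 2, against 30.7% and 7.58% of all features, with medians of 0.79 and 0.15. The sign was the same under the 3 scalings for 30 of 34 members, the exceptions being Kif12, Kif13a, Kif15 and Kif24. In each value below the difference is N18 minus BV2 in normalized log2 intensity with its SE, and a fold is given as a lower bound where 1 line was below its threshold.

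Of the neuronal transport kinesins 4 of 7 were higher in N18 and 2 lower, and the extreme differences of the family in both directions were among them. Kif5c read 10.21, 10.28, 10.23 and 10.18 on the 4 BV2 plates and 13.2, 13.27, 13.51 and 13.33 on the 4 N18 plates. The lines were far apart, by 3.11 ± 0.10 (limma adjusted p = 4.31e-13), at least 5.5-fold. Kif5a read 10.59, 10.86, 10.86 and 10.63 in BV2 and 13.51, 13.61, 13.55 and 13.44 in N18. Its difference was 2.80 ± 0.11 (limma adjusted p = 3.83e-12), at least 6.3-fold. For both genes every N18 plate was above every BV2 plate. The plates of these lines did not overlap for 55.4% of all features. Each of the 3 probes of Kif5c (2.87 to 3.31) and of the 6 probes of Kif5a (1.29 to 3.29) was higher in N18. Kif1a, which carries synaptic vesicle precursors, and Kif3c, a kinesin-2 motor of neurons, were higher by smaller amounts, 0.41 ± 0.14 (adjusted p = 0.0262) and 0.37 ± 0.11 (adjusted p = 0.0146). Kif1a was below threshold in BV2, had no usable bound on the fold and held 1 of 3 probes at -0.056. It no longer passed without BV2 plate 2 or 4 or N18 plate 2 or 3 (0.35 to 0.39), and Kif3c without BV2 plate 1 or N18 plate 1 (0.32 in each).

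In the opposite direction, Kif17, a kinesin-2 motor known for carrying glutamate receptors in dendrites, was higher in the microglial line. It read 12.24, 12.5, 12.17 and 12.08 on the BV2 plates and 10.43, 10.48, 10.47 and 10.51 on the N18 plates. The N18 plates lay close together and far below, with a difference of -1.77 ± 0.19 (limma adjusted p = 9.8e-07), at least 2.5-fold higher in BV2. Its 3 probes were all lower in N18 but unequally so, from -2.53 to -0.31, and 1 of them was beyond -1. Kif21b, a kinesin-4 motor that also restrains microtubule growth, read 12.36, 12.56, 12.36 and 12.07 in BV2 and 11.31, 11.25, 11.3 and 11.15 in N18. It was detected in both lines and lower in N18 by -1.08 ± 0.15 (limma adjusted p = 2.13e-05), with its 3 probes between -1.17 and -0.92. Kif21a, its relative, differed by 0.20 (95% interval -0.18 to 0.58) and did not pass.

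**Figure D3:**
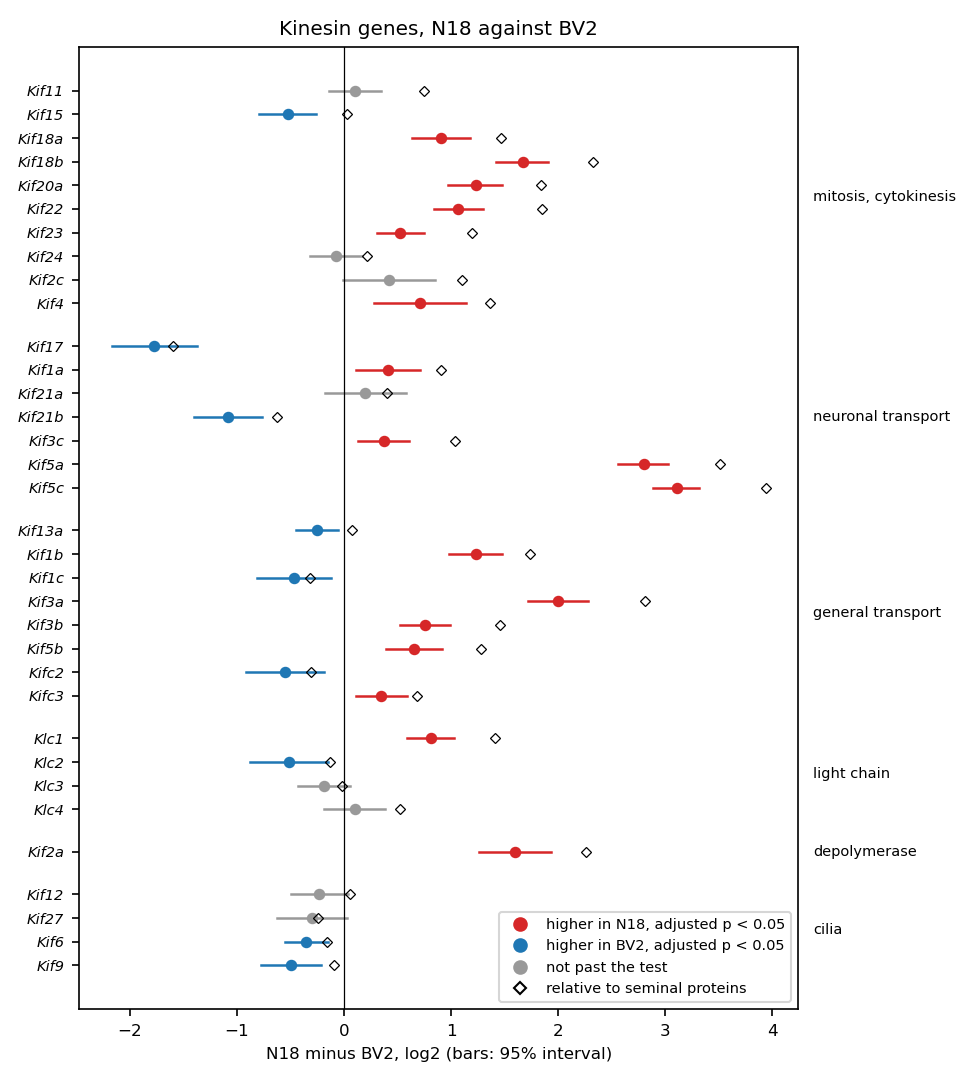
Difference of N18 from BV2 for each kinesin gene (log2, horizontal axis) after quantile normalization, with the 95% interval of limma as a bar and colors for genes past the test, beside the difference relative to the seminal proteins (open diamonds). Kif5c (3.11) and Kif5a (2.80) stand farthest to the right and Kif17 (-1.77) farthest to the left, and every diamond lies to the right of its circle.

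Of the mitotic kinesins 6 of 10 were higher in N18, 1 was lower (Kif15, a direction that turned relative to the seminal proteins) and 3 did not pass, with a median difference of 0.62. On the seminal protein scale and unnormalized 8 of 10 were higher and 0 lower. Kif18b, which limits the length of astral microtubules, read 11.51, 11.63, 11.37 and 11.35 in BV2 and 13.11, 13.01, 13.1 and 13.3 in N18. It was 3.17-fold higher in N18 (1.67 ± 0.12, limma adjusted p = 5.2e-09), and all 3 probes were (1.11 to 1.82). Kif20a, which brings the chromosomal passenger complex to the midzone, read 11.98, 12.14, 12.24 and 11.96 in BV2 and 13.2, 13.52, 13.3 and 13.2 in N18. Its difference was 1.23 ± 0.12 (limma adjusted p = 3.83e-07), or 2.34-fold, and rested on 2 of 3 probes, the third standing at -0.047. Kif22, a chromokinesin that pushes chromosome arms outward, read 11.03, 11.12, 10.79 and 10.96 in BV2 and 12.17, 12.11, 12.09 and 11.82 in N18, a difference of 1.07 ± 0.11 (limma adjusted p = 5.91e-07). The plates of the lines did not overlap for any of these genes, as for 55.4% of all features.

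Kif18a, the kinesin-8 that damps chromosome movement at metaphase, was listed between 9.93 and 10.11 on the BV2 plates and between 10.87 and 10.99 on the N18 plates. It was below threshold in BV2 and differed by 0.91 ± 0.13 (limma adjusted p = 2.41e-05), without a usable bound on the fold. Kif4, a chromokinesin of the midzone, ranged from 12.22 to 12.39 in BV2 and from 12.87 to 13.11 in N18. Kif23, the motor of the centralspindlin complex that cytokinesis needs, ranged from 12.06 to 12.32 and from 12.62 to 12.8. Both were modestly higher in N18, by 0.71 ± 0.20 (adjusted p = 0.00984) and 0.53 ± 0.10 (adjusted p = 0.000607).

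Kif11 (Eg5), the main motor that separates spindle poles, differed by 0.11 (95% interval -0.14 to 0.35) and did not pass after quantile normalization. It differed by 0.74 on the seminal protein scale and by 0.71 unnormalized, where the median of all features was 0.18 and 0.15, and passed as higher in N18 under both. Kif15, which can share that task, read 12.06, 11.95, 11.98 and 12.16 in BV2 and 11.38, 11.49, 11.55 and 11.63 in N18. It was lower in N18 by -0.53 ± 0.13 (limma adjusted p = 0.00283) after quantile normalization and differed by 0.025 relative to the seminal proteins, where the median of all features was 0.18. Kif2c, a depolymerase of centromeres, differed by 0.42 (95% interval -0.012 to 0.85) and did not pass, against 1.1 and 1.07 under the other scalings, where it passed as higher in N18. Kif24, below threshold in every line, differed by -0.074 (95% interval -0.32 to 0.17). Kif2a, a depolymerase related to Kif2c that also trims axon branches, read 11.57, 11.51, 11.45 and 11.67 in BV2 and 13.18, 13.23, 13.01 and 13.18 in N18. It was 3.03-fold higher in N18 (1.6 ± 0.16, limma adjusted p = 4.22e-07), with all 3 probes above 1.

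Among the transport kinesins of many cells 5 of 8 were higher in N18 and 3 lower. The 3 lower calls became 0 on the seminal protein scale, unnormalized and with medians of probes, and 0 to 2 when a BV2 or N18 plate was left out. Kif3a, a motor subunit of the kinesin-2 that serves cilia and axons, read 10.65, 10.56, 10.55 and 10.8 in BV2 and 12.52, 12.74, 12.62 and 12.66 in N18. The difference was 2.00 ± 0.13 (limma adjusted p = 2.75e-09), at least 3.4-fold, and Kif3b, its partner subunit, differed by 0.76 ± 0.11 (adjusted p = 3.07e-05) with 11.19 to 11.47 in BV2 and 11.94 to 12.11 in N18. Both subunits were therefore higher in N18. Kif1b, which carries mitochondria and vesicle precursors, read 10.85, 10.83, 10.65 and 10.84 in BV2 and 11.95, 12.09, 12.11 and 11.96 in N18, a difference of 1.23 ± 0.12 (limma adjusted p = 2.8e-07), at least 2.2-fold. Its 2 targets were unequal, with differences of 0.41 and 2.06. Kif5b ranged from 12.21 to 12.49 in BV2 and from 12.84 to 13.1 in N18, 1.57-fold higher there (0.65 ± 0.12, limma adjusted p = 0.000393). Kifc3, a minus-end motor below threshold in both lines, was higher by 0.35 ± 0.11 (adjusted p = 0.0196), and no longer passed without BV2 plate 3 or 4 or N18 plate 1 or 3 (0.31 to 0.33).

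The lower members of this group were small in size. Kifc2, a minus-end motor, ranged from 10.63 to 11.49 in BV2 and from 10.33 to 10.46 in N18. It was lower in N18 by -0.55 ± 0.17 (limma adjusted p = 0.0174), did not pass without BV2 plate 3 or without N18 plate 2 (-0.36 and -0.50), and turned to 0.095 with the median of its probes. Kif1c, below threshold in both lines and with plates that overlapped, was lower by -0.47 after quantile normalization, and did not pass under the other scalings (-0.31 and -0.35) or without BV2 plate 1 or 2 or N18 plate 1 or 2 (-0.45 to -0.30). Kif13a was lower by -0.25 and turned to 0.072 relative to the seminal proteins, and it did not pass when any 1 of the 8 plates was left out (-0.27 to -0.22).

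Of the light chains 1 of 4 was higher and 1 lower. Klc1 read 12.07, 12.17, 12.09 and 11.98 in BV2 and 12.88, 12.9, 12.89 and 12.87 in N18, a difference of 0.81 ± 0.10 (limma adjusted p = 8.38e-06) or 1.75-fold. All 7 of its targets, which stand for transcript variants, were higher in N18, by 0.33 to 1.10, as were 16 of its 21 probes. Probes at the same position recur across these targets, so the targets may not be independent. In the targets at 0.33, 0.35 and 0.81 the rise rested on 1 probe each (0.83, 0.76 and 1.27). The other probes of those targets stood between -0.52 and 0.085. Klc2 read 11.56, 11.53, 11.25 and 11.46 in BV2 and 11.04, 11.03, 10.84 and 10.82 in N18. It was lower by -0.51 ± 0.17 (limma adjusted p = 0.0248), and no longer passed when BV2 plate 1, 2 or 4 or N18 plate 3 or 4 was left out (-0.50 to -0.46). Klc3 and Klc4 differed by -0.19 (95% interval -0.43 to 0.061) and 0.099 (95% interval -0.19 to 0.39). Of the members listed with cilia and flagella, none was higher in N18, and Kif9, known from motile cilia and sperm, was lower by -0.49 ± 0.13 (limma adjusted p = 0.00617) and Kif6 by -0.35 ± 0.09 (adjusted p = 0.00661). Relative to the seminal proteins Kif9 differed by -0.092 and Kif6 by -0.15.

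**Figure D4:**
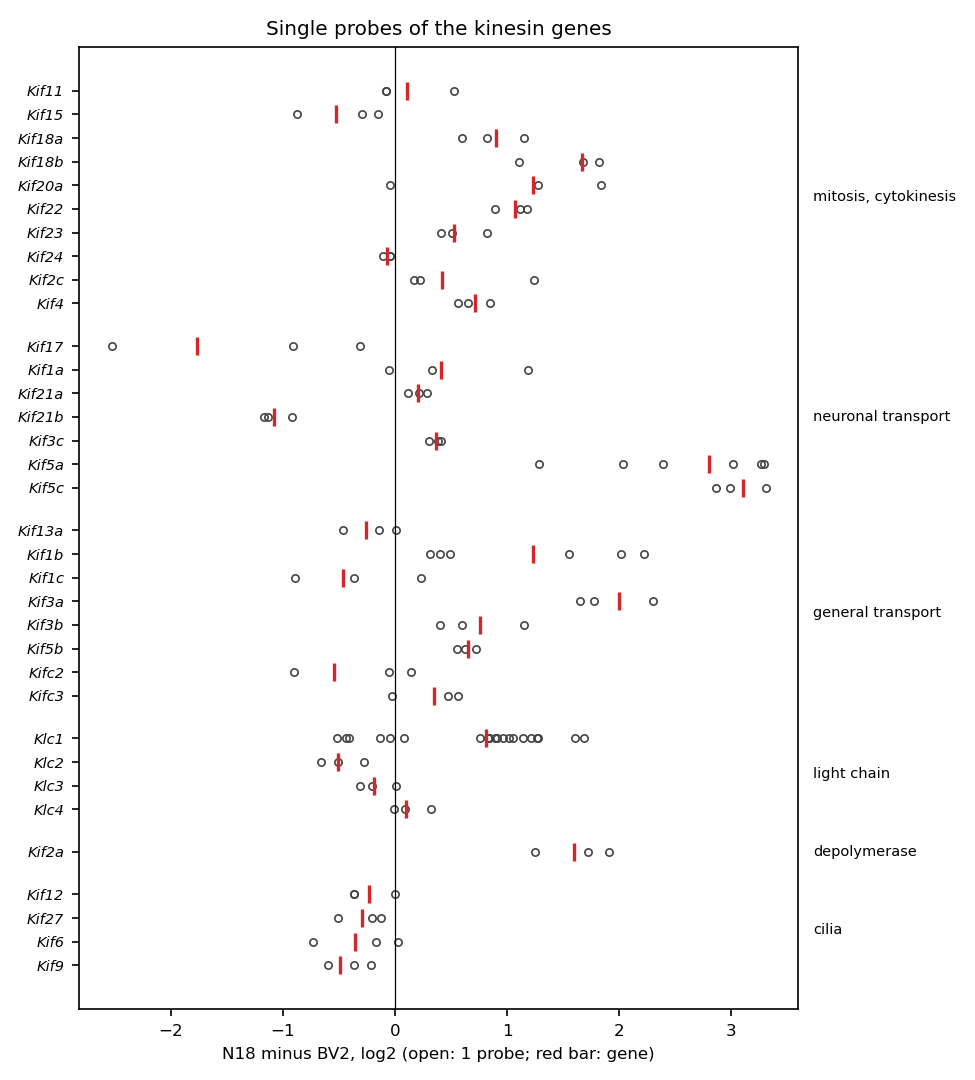
Difference of N18 from BV2 (log2 after quantile normalization, horizontal axis) for every single probe (open circles) of each kinesin gene, with the value of the gene as a red bar. All probes of Kif5a, Kif5c, Kif3a, Kif2a and Kif18b lie beyond 1, while those of Klc1 spread from -0.52 to 1.69.

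Genes that work with the kinesins were counted in the same comparison, where 19.0% of all features were higher in N18 and 21.9% lower. Among the features detected in at least 1 of both lines the shares were 31.6% and 28.0%. Of 15 partners of mitotic kinesins 10 were higher in N18, 1 was lower (Incenp, by -0.45, against 0.22 relative to the seminal proteins) and 4 did not pass. Racgap1, which joins Kif23 in centralspindlin, was higher by 1.38 ± 0.13 (limma adjusted p = 1.74e-07), Ect2, the exchange factor that centralspindlin recruits, by 1.23 ± 0.10 (adjusted p = 4.07e-08; below threshold in BV2, at least 1.3-fold), and Hmmr, a spindle protein, by 1.05 ± 0.17 (adjusted p = 0.000124). Of 22 measured cargo adaptors of transport kinesins 12 were higher and 3 lower. Mapk8ip2 and Mapk8ip1, scaffolds that bind kinesin light chains, were below threshold in BV2 and higher in N18 by 3.06 ± 0.12 (limma adjusted p = 3.17e-12), at least 7.8-fold, and by 2.72 ± 0.13 (adjusted p = 5.78e-11), at least 4.4-fold. Hap1, an adaptor in neurons that was detected in both lines, was higher by 2.20 ± 0.11 (adjusted p = 4.96e-11). Of 23 genes of cytoplasmic dynein, dynactin and their regulators, which move cargo the other way, 16 were higher and 1 was lower (Dync1li1, by -0.74, against -0.067 relative to the seminal proteins), and Pafah1b1 (Lis1), a regulator of dynein, was higher by 1.12 ± 0.13 (adjusted p = 2.23e-06). Dynlt3, a dynein light chain, was higher by 0.95 ± 0.13 (adjusted p = 1.18e-05), and Bicd1, a dynein adaptor below threshold in both lines, by 1.00 ± 0.17 (adjusted p = 0.000175).

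Against BV2, the plates labelled AtT20 had 16 members higher (47.1%, against 47.0% of all features) and 12 lower (35.3%, against 26.6%). The split was 6 higher and 18 lower on the seminal protein scale, against 20.9% and 46.9% of all features. Unnormalized it was 22 higher and 6 lower, against 74.7% and 11.7%. The balance of directions thus depends on the scaling. The median of all features moved likewise, from 0.23 after quantile normalization to -0.22 and 1.08. The sign held under the 3 scalings for 23 of 34 members, and only such members are named.

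Kif5b read 10.52, 10.47, 10.73 and 10.25 on the plates labelled AtT20 and 12.38, 12.24, 12.21 and 12.49 in BV2. It was lower by -1.84 ± 0.12 (limma adjusted p = 1.15e-09), with -2.43 on the seminal protein scale and -1.12 unnormalized, at least 1.6-fold. Kif11 read 9.81, 9.92, 9.92 and 10.28 against 11.75, 11.69, 11.51 and 11.68, a difference of -1.67 ± 0.11 (limma adjusted p = 1.47e-09), with -1.91 and -0.61 under the other scalings. All 3 probes of each were lower, and Kif11, below threshold on the plates labelled AtT20, had no usable bound on the fold. Kif23 went the other way, with 14.41, 14.52, 14.47 and 14.63 against 12.24, 12.32, 12.06 and 12.13. It was higher by 2.32 ± 0.10 (limma adjusted p = 1e-11), with 1.40 and 2.70 under the other scalings, although 1 of its 3 probes was lower (-0.92) and the highest stood at 2.71. Klc3 (2.12 ± 0.12, limma adjusted p = 1.08e-10, at least 1.5-fold), Kif21a (1.94 ± 0.18, limma adjusted p = 5.75e-08, below threshold in BV2 and without a usable bound) and Kif2a (1.93 ± 0.16, limma adjusted p = 1.43e-08) were also higher. Relative to the seminal proteins they differed by 1.09, 1.08 and 0.93, and unnormalized by 2.39, 2.38 and 2.23. Klc3 rested on 2 of 3 probes, the remaining one standing at -0.23. Kif2a also rested on 2 of 3 probes and, taken as the median probe, differed by 0.37 and no longer passed. Of the mitotic kinesins 2 were higher and 5 lower.

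Against the plates labelled AtT20, N18 had 16 members higher (47.1%, against 27.8% of all features) and 14 lower (41.2%, against 48.6%). Relative to the seminal proteins the split was 24 and 4, against 58.3% and 18.5% of all features. Without normalization it was 14 and 15, against 19.9% and 63.1%. The median of all features went from -0.25 to 0.48 and -0.86. Of the mitotic kinesins 7 were higher and 2 lower after quantile normalization (Kif20a, whose sign turned under both other scalings, and Kif23). Kif23 differed by -1.79, by -0.21 relative to the seminal proteins, where it did not pass, and by -1.54 unnormalized. Of its 3 probes 1 was higher in N18 (1.74). Kif5b was higher by 2.49 ± 0.12 (limma adjusted p = 2.83e-11), at least 2.8-fold, with 3.71 relative to the seminal proteins. Kif5c, which read 11.35, 11.28, 11.34 and 11.39 on the plates labelled AtT20, was higher in N18 by 1.99 ± 0.10 (limma adjusted p = 4.55e-11), at least 3.5-fold, with 3.63. Kif3a, which read 10.75, 10.32, 10.9 and 10.38 there, was higher by 2.05 ± 0.13 (limma adjusted p = 6.77e-10), at least 2.2-fold, with 3.36. Unnormalized, Kif5b, Kif5c and Kif3a differed by 2.37, 2.29 and 2.03. Every probe of these genes was higher in N18.

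Klc1 was also higher in N18, by 0.95 ± 0.10 (limma adjusted p = 3.94e-07), with 2.6 relative to the seminal proteins and 15 of 21 probes higher. Klc3, Kifc2 and Klc2 were lower. Klc3 read 12.78, 12.7, 12.39 and 12.41 on the plates labelled AtT20 and 10.19, 10.33, 10.29 and 10.26 in N18. It was lower in N18 by -2.30 ± 0.12 (limma adjusted p = 3.81e-11), at least 1.4-fold, with -1.10 relative to the seminal proteins. Kifc2 was lower by -2.16 ± 0.17 (limma adjusted p = 8.94e-09), at least 1.5-fold, with -0.94, and Klc2 by -2.02 ± 0.17 (limma adjusted p = 2.02e-08), with -0.55, where it did not pass. Unnormalized, Klc1 differed by 1.26, Klc3 by -2.44, Kifc2 by -2.27 and Klc2 by -1.88. Klc2 and Klc3 each rested on 2 of 3 probes, the remaining one standing at 0.31 and -0.086. All 3 probes of Kifc2 were lower in N18 but unequally so, with 1 at -2.8 and the others at -0.66 and -0.56. The 2 pairs with the plates labelled AtT20 share those 4 plates. The part that the narrow range of these arrays and the absence of corticotroph markers have in these differences was not tested.

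**Figure D5:**
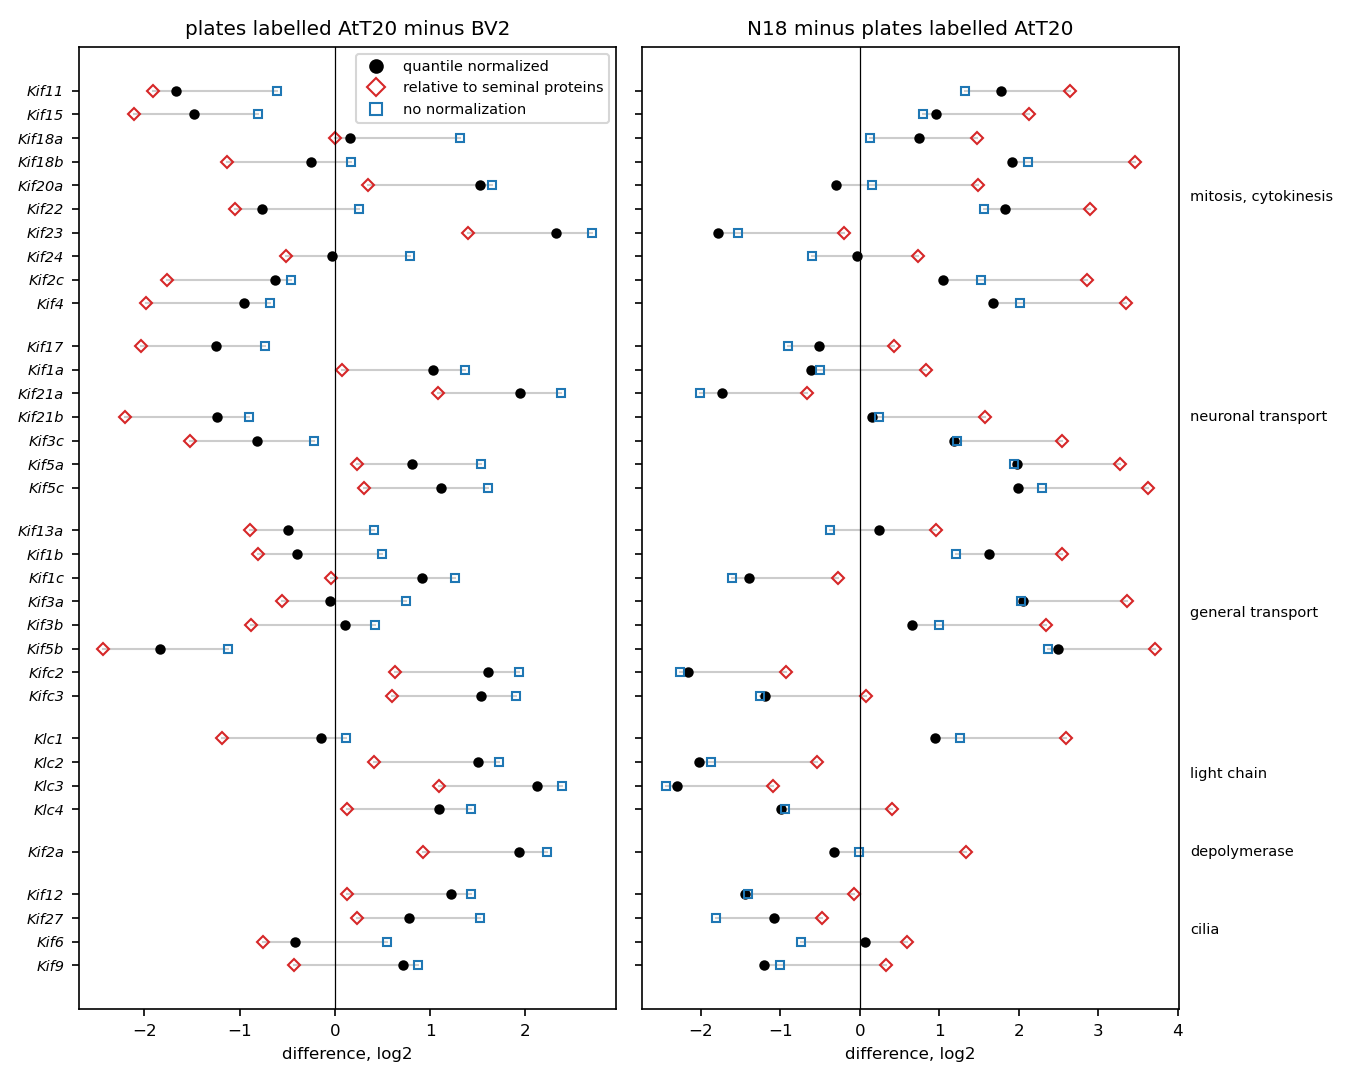
Differences of each kinesin gene between the plates labelled AtT20 and BV2 (left) and between N18 and the plates labelled AtT20 (right), in log2, after quantile normalization (black circles), against the seminal proteins (red diamonds) and unnormalized (blue squares). On the left 23 of 34 genes and on the right 24 of 34 genes keep their sign under all 3 scalings, among them Kif5b and Klc3 on both sides.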

How the data were processed

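Single-color NimbleGen arrays (mouse design on build MM8, 3 probes of 60 bases for most targets) were scanned and extracted per the study's methods with GenePix 6.0 and NimbleScan 2.4. The values that the authors deposited are log2 Cy3 intensities of 72000 probes on 12 arrays; neither background subtraction nor normalization is stated, and none was found in the values. The depth of an array is limited by signal over background and by 4 plates per line. The 25631 targets were named through the RefSeq table (69.4% matched). Arrays were quantile normalized, probes averaged on the linear scale, and targets averaged per gene. For the comparison of lines, all 12 arrays entered one linear model in limma (version 3.58.1, R 4.3.3) with trended empirical Bayes variances, Benjamini-Hochberg adjustment and calls at an adjusted p under 0.05. A lower bound on a fold sets the detected line against the higher of the other line's threshold and value, as the smallest over the 3 scalings.

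Up to 20 members were named for N18 against BV2, being called, detected in at least 1 line and without overlap of plates, in order of size, and up to 6 for each other pair, with the same sign under the 3 scalings. The kinesin-1 chains were always named, and in each list of other genes the 3 largest. Kif1a, Kif1c, Kif2c, Kif3c, Kif6, Kif11, Kif13a, Kif21a, Kif24, Kifc3, Incenp and Dync1li1 were given values for N18 against BV2 outside this rule, after their values were seen. The same holds for Kif23 for N18 against the plates labelled AtT20. Members, lists and tests were chosen with earlier results of these data known. The fit was tested on simulated data: for N18 against BV2, 93.5% of 200 features changed by 1 were recovered and 27.5% of those changed by 0.5, among 25128. The simulation changed far fewer features than were called in the data (19.0% higher and 21.9% lower) and used independent normal noise. Its recovery therefore does not measure that of the reported fit. Figures were made with Python 3.11.15 and matplotlib 3.10.9. Alternatives were no normalization, levels relative to seminal proteins, means of log2 probes, medians of probes, normexp (offset 50), the highest target, a filter on detection, a replicate block, 8 arrays, a minimum difference of 1 and leaving out each plate; for detection, olfactory receptor controls, 3 SD and all 4 plates. Detection with Svs3a alone as Svs3 was added after seeing the data.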

Additional observations from a re-analysis of the deposited data

Results flagged for a closer look

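In 10 of 102 groups of 4 plates (34 genes in 3 lines) the highest or the lowest plate stood apart from the other plates by Dixon's criterion, where chance gives about 1 in 20. N18 plate 2 was high for Kif20a, with a level of 4.46 against 3.85 to 3.87 on the other plates, for Kif3b (3.1 against 2.64 to 2.72) and for Kif5a (4.54 against 4.05 to 4.13). BV2 plate 2 was high for Kif27 (0.45 against -0.27 to -0.2) and low for Kif12 (0.53 against 0.77 to 0.82) and Kif9 (1.11 against 1.27 to 1.3). Among the plates labelled AtT20, plate 3 was low for Kif23 (3.01 against 3.83 to 3.98) and Kif17 (-0.09 against 0.35 to 0.43), and plate 1 was high for Kif4 (1.04 against 0.23 to 0.24). N18 plate 4 was low for Kifc2 (0.56 against 0.64 to 0.65). All are levels in log2 over the seminal proteins.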

How the results depend on the processing

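Counts of members moved with the scaling, the summary of probes and a minimum difference. For N18 against BV2, the 9 lower members became 2 without normalization, 2 relative to the seminal proteins, 2 with medians of probes and 2 with a difference of at least 1, which left 8 of the 17 higher ones. For the plates labelled AtT20 against BV2, the 16 higher became 6 relative to the seminal proteins, and the 12 lower became 6 without normalization and 5 with a difference of at least 1. For N18 against the plates labelled AtT20, the 14 lower became 4 relative to the seminal proteins. Of the 17 members detected on the plates labelled AtT20, 11 passed on all 4 plates. Kifc2 turned to 0.095 (medians of probes) and Kif15 to 0.025 (seminal proteins) for N18 against BV2.

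Of the recomputed counts over the whole family, 155 stayed within 1.5 times the reported count and 10 did not. Of those over role groups and lists of partner genes, 823 did and 101 did not, among them the 3 lower transport kinesins of many cells (0 under both other scalings) and the 16 higher dynein and dynactin genes (2 with a difference of at least 1). Of the values for single genes, 2 changed sign as given above and 30 kept their sign but no longer passed. Kif9, Kif15, Klc2 and Kifc2 (N18 against BV2) lost their calls without normalization and relative to the seminal proteins; the cause was not tested. Leaving out each plate gave 15 to 17 higher and 6 to 9 lower members for N18 against BV2, 16 to 16 and 12 to 13 for the plates labelled AtT20 against BV2, and 15 to 17 and 12 to 14 for N18 against the plates labelled AtT20. Detected members ranged from 17 to 19 on the plates labelled AtT20, 18 to 21 in BV2 and 23 to 24 in N18. With a replicate block the counts of higher and lower members were 17 and 8, 16 and 12, and 15 and 14 in the same order of pairs. The labels do not tie plates with one number together, and their deviations correlated at -0.105 to 0.319, so a pairing was not taken up. The slide as a block was not run, since it is not known here which arrays shared a slide. Whether slide and line coincide is therefore not known either, and a part of the slide in the differences between lines was not tested.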
